A study of Mus musculus with 2 samples.

Results

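The genes described here are 10 mouse genes of the heterogeneous nuclear ribonucleoproteins (hnRNPs): Hnrnpa1, Hnrnpa2b1, Hnrnpc, Hnrnpd, Hnrnpf, Hnrnph1, Hnrnpk, Hnrnpl, Hnrnpm and Hnrnpu. They were taken by symbol, with earlier results of these data known, and are 10 of the 55536 annotated genes in the gene tables. All 10 symbols matched, with 141 annotated transcripts between them. Of these transcripts, 94 were above 0 in both libraries and 31 were listed at 0 in both.

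Primary macrophages derived from the bone marrow of C57BL/6J mice received 100 ng/ml of Lipid A for 60 min, and ribosome-depleted total RNA from their nucleoplasm (nuclear contents other than chromatin) was sequenced. Lipid A, a glycolipid of Gram-negative bacteria, is the ligand that TLR4 senses in lipopolysaccharide. The study has 1 group of 2 biological replicates, from separate biosamples that carry the same donor label, and the starting amount was 1 µg in the first and 500 ng in the second. Sex and age were not collected, and no unstimulated or cytoplasmic library was analysed here. The values are therefore levels in this fraction of stimulated cells and cannot show a response to Lipid A. With 2 libraries of 1 group no test was possible, and each SD is the spread between these libraries.

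As background, hnRNPs coat nascent pre-mRNA in the nucleus and influence which splice sites are used, how the transcript is packaged and when it is exported. Many of their genes carry alternative exons or introns that place a stop codon ahead of a splice junction, a layout that marks the RNA for nonsense-mediated decay (NMD), and several hnRNPs are known to regulate their own mRNA in this way. NMD acts on RNA that is being translated, outside the nucleus, and retained introns can hold a transcript in the nucleus.

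The gene tables held 21115765 expected counts (estimated reads, which need not be whole) on annotated genes in replicate 1 and 15607391 in replicate 2. The 10 hnRNP genes took 45616 and 29796 of them, or 0.216% and 0.191%. All 10 macrophage markers were at 10 TPM (transcript abundance, corrected for length, as a share of the library) or more in both libraries, with medians of 209 and 127 TPM. In the gene tables none of 12 markers of T cells, B cells, neutrophils, erythroid cells, fibroblasts, endothelium and epithelium reached 1 TPM, and 6 of the 12 were at 0 in replicate 1 and 8 in replicate 2. Of the 12, 2 were above 1 TPM in the second transcript table, Pecam1 of endothelium at 2.11 TPM and 5.01 TPM and Cd3d of T cells at 2.80 TPM and 4.07 TPM. In bulk RNA, fewer cells with a transcript and less of it per cell cannot be told apart. The nuclear RNAs Malat1 and Neat1 were at 21601 TPM and 17300 TPM and at 1558 TPM and 824 TPM. Among mitochondrial RNAs, mt-Co1 was at 9976 TPM and 11705 TPM, mt-Nd1 at 3487 TPM and 4742 TPM, and mt-Cytb at 3504 TPM and 4335 TPM. The fraction thus also held RNA from outside the nucleus.

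The A/B proteins are abundant hnRNPs that bind pre-mRNA and often repress nearby splice sites. Hnrnpa2b1, whose product also takes part in RNA transport, had the highest level of the 10, at 353 TPM in replicate 1 and 241 TPM in replicate 2 (297 ± 79.5, SD, n = 2). It was placed 92nd and 95th among protein-coding genes. Hnrnpa1 encodes the closely related splicing repressor and lay near the bottom of the set, at 46.0 TPM and 31.3 TPM (38.7 ± 10.4, SD, n = 2). Hnrnpa2b1 was thus far above Hnrnpa1 in each library, although both encode A/B proteins.

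Hnrnph1 encodes a protein that binds runs of G near regulated exons, and was at 191 TPM and 132 TPM (161 ± 42.1, SD, n = 2). Its paralogue Hnrnpf, whose product binds the same kind of sequence, was lower, at 52.7 TPM and 35.7 TPM (44.2 ± 12.0, SD, n = 2). Hnrnpk, the gene of a KH-domain protein that binds C-rich RNA and DNA, was at 168 TPM and 124 TPM (146 ± 31.2, SD, n = 2). All 3 were higher in replicate 1.

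The remaining genes covered the lower and middle levels. Hnrnpm, for a protein that binds GU-rich RNA and is known to restrain the processing of Il6 pre-mRNA in macrophages, was at 126 TPM and 82.4 TPM (104 ± 30.6, SD, n = 2). Hnrnpu, for the scaffold attachment factor that binds chromatin and RNA, was at 90.4 TPM and 65.2 TPM (77.8 ± 17.8, SD, n = 2). These 2 stood above the last 3 genes in both libraries. Hnrnpl, for a protein that binds CA repeats, was at 67.1 TPM and 47.6 TPM (57.4 ± 13.8, SD, n = 2). Hnrnpc, for a protein that binds uridine tracts and stays in the nucleus, was at 59.3 TPM and 54.0 TPM (56.6 ± 3.75, SD, n = 2). Hnrnpd, for AUF1, which binds AU-rich elements and influences the decay of cytokine mRNAs, had the lowest level, at 36.3 TPM and 26.3 TPM (31.3 ± 7.10, SD, n = 2).

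**Figure D1:**
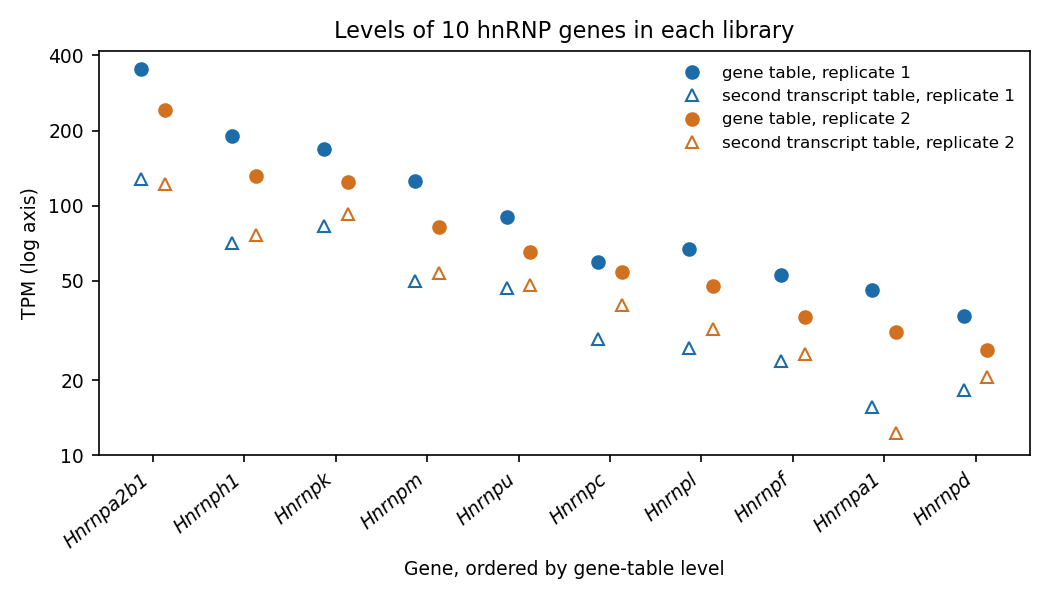
TPM (log axis) of each of the 10 genes in replicates 1 (blue) and 2 (orange), from the gene table (filled circles) and from the second transcript table summed per gene (open triangles). Hnrnpa2b1 was highest in both tables, and Hnrnpd was lowest in the gene table while Hnrnpa1 was lowest in the second table.

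The order held between the libraries for most neighbours. Of the 9 pairs of neighbours in the order by mean log2(TPM + 1), 8 differed in the same direction in both libraries by a mean larger than its SD. The widest step lay between Hnrnpa2b1 and Hnrnph1, a log2 difference of 0.87 ± 0.01 (SD, n = 2), and the narrowest of the 8 lay between Hnrnph1 and Hnrnpk, at 0.13 ± 0.07. By TPM of the gene tables Hnrnpc and Hnrnpl could not be put in order. Hnrnpc was lower by 0.18 on the log2 scale in replicate 1 and higher by 0.18 in replicate 2. In the second transcript table, a separate quantification of the same reads, Hnrnpk stood above Hnrnph1 and Hnrnpa1 was lowest, so that 6 of the 10 kept their place. There Hnrnpa1 was at 15.6 TPM and 12.3 TPM, and Hnrnpd at 18.2 TPM and 20.5 TPM. By CPM (expected counts scaled to library size, with no correction for length), Hnrnpu came next after Hnrnpa2b1 and Hnrnph1, and 5 kept their place. Hnrnpc was above Hnrnpl in both libraries in the second table, at 29.2 TPM and 40.1 TPM against 26.8 TPM and 32.0 TPM. It was also above Hnrnpl by CPM, at 124 and 137 against 90.7 and 87.6.

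All 10 genes were above the median of the 8622 protein-coding genes that had at least 1 TPM in both libraries, which was 8.29 TPM in replicate 1 and 6.31 TPM in replicate 2. The 2 protein-coding genes just above Hnrnpa2b1 by mean TPM were Rgs1, a regulator of G-protein signalling, at 358 TPM and 240 TPM, and Actg1, a cytoplasmic actin, at 324 TPM and 274 TPM. The 2 just below were Gadd45b, a stress-induced gene, at 371 TPM and 222 TPM, and Osbpl8, a lipid-transfer protein gene, at 360 TPM and 225 TPM. These genes shared a level with Hnrnpa2b1, and with 1 condition no likeness of pattern across conditions could be measured.

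Every hnRNP gene had a lower TPM in replicate 2, by a median of -0.52 on the log2 scale (range -0.61 to -0.14), beside a median of -0.42 over the same 8622 genes. After normalisation of the expected counts by library, most of that shift was gone. The normalised log2 ratio of replicate 2 over replicate 1 had a median of -0.13 over the 10 genes, from -0.27 for Hnrnpk to 0.20 for Hnrnpc, with 7 genes lower and 3 higher. The median absolute ratio was 0.13 for the 10 genes and 0.18 for all genes. None of the 10 genes was past 2-fold either way, beside 119 of 10088 genes tested (1.18%).

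**Figure D2:**
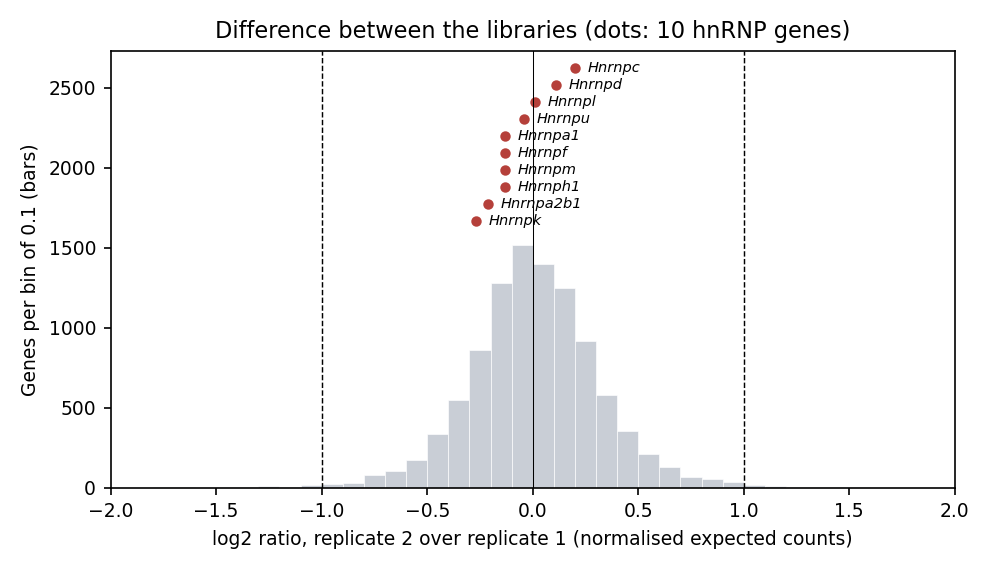
Log2 ratio of replicate 2 over replicate 1 from normalised expected counts, as a histogram of 10088 genes in bins of 0.1 (grey, 19 genes beyond the axis not drawn) and as 1 dot for each hnRNP gene (height only separates the names). Dashed lines mark 2-fold, and all 10 dots lie between -0.27 and 0.20.

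The annotation gives each transcript a type, and much of the nucleoplasmic hnRNP RNA was assigned to types other than protein coding. Over 9 genes with at least 1 such transcript (all except Hnrnpf), the non-coding types held a median of 60.7% of the gene's TPM in replicate 1 and 62.8% in replicate 2. Over all 7263 protein-coding genes with such transcripts the medians were 33.0% and 32.4%. At 50% or more in both libraries were 6 of the 9 genes, namely Hnrnpa1, Hnrnpa2b1, Hnrnph1, Hnrnpl, Hnrnpm and Hnrnpu, beside 22.6% of all such genes. The same 6 passed in the second table, beside 38.4% of all such genes, whose medians there were 44.1% and 46.7%. By the share of expected counts, which is not corrected for length, 4 of the 9 passed (Hnrnpa1, Hnrnpa2b1, Hnrnph1 and Hnrnpl), beside 14.6%, and the medians were 42.6% and 41.8% beside 16.7% and 16.8% over all genes. The annotated transcripts of non-coding types number 2 of 13 for Hnrnpc, 8 of 9 for Hnrnpu and 15 of 18 for Hnrnph1. The genes set beside the hnRNP genes were not matched for this number.

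The types differed from gene to gene. Retained-intron transcripts held at least 50% of TPM in both libraries in 3 of the 7 genes that have one annotated (Hnrnpa2b1, Hnrnpl and Hnrnpm), beside 13.9% of all such genes. In the second table Hnrnpa2b1 and Hnrnpl passed and Hnrnpm did not, at 44.8% and 49.5%, beside 20.3% of all such genes. By expected counts none of the 7 passed, beside 11.4%. NMD transcripts passed 50% in 1 of 6 genes (Hnrnpa1), beside 2.26%, and transcripts of the type called processed transcript, which have no annotated reading frame, passed it in 1 of 3 (Hnrnph1), beside 3.74%. With so few genes eligible for each type, these counts describe the named genes alone. A transcript of the retained-intron type need not hold a whole intron that protein-coding transcripts remove. None of those of Hnrnpm does. In Hnrnpl only Hnrnpl-203 (2.16% and 2.29% of TPM) and Hnrnpl-210 (2.31% and 0) do. In Hnrnpa2b1 only Hnrnpa2b1-208 (22.6% and 24.1%) and Hnrnpa2b1-213 (7.78% and 5.63%) do.

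**Figure D3:**
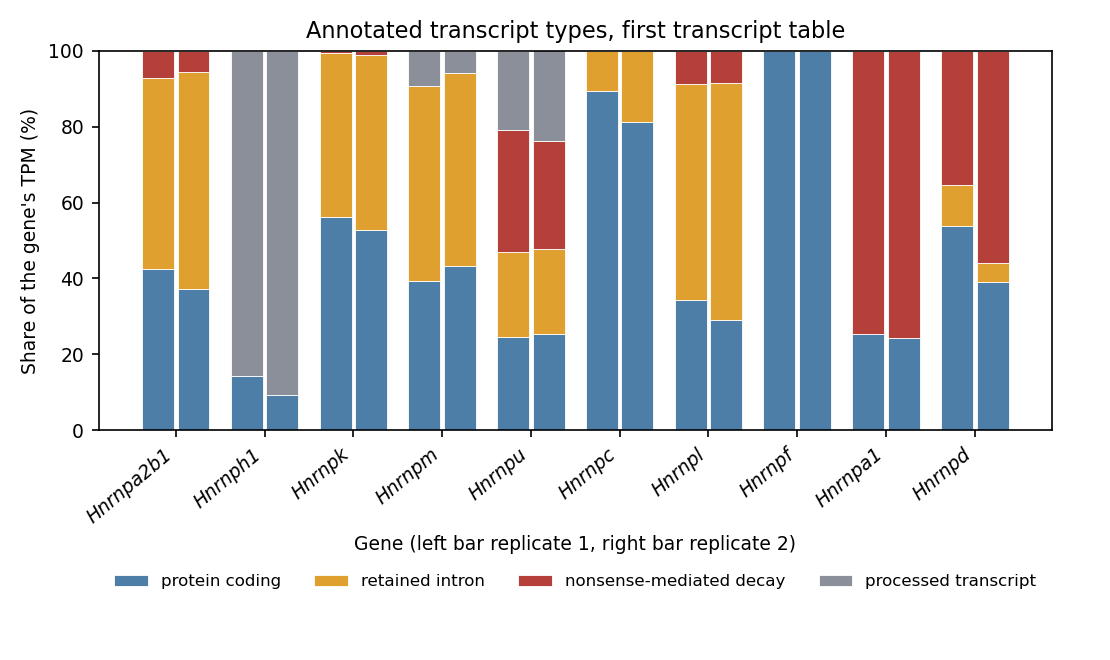
Share of each gene's TPM (%) by annotated transcript type in the first transcript table, with replicate 1 as the left bar and replicate 2 as the right bar of each gene. Hnrnpf lies wholly on protein-coding transcripts, Hnrnph1 mostly on processed transcripts (85.7% and 90.8%) and Hnrnpa1 mostly on NMD transcripts (74.6% and 75.7%).

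Hnrnpa1 (chr15:103240432-103246692, mm10, plus strand) had only 25.4% and 24.3% of its TPM on protein-coding transcripts. The rest lay on 2 NMD transcripts. Hnrnpa1-203 held 46.7% and 47.0%, and Hnrnpa1-204 held 27.9% and 28.8%. The shares of each transcript differed little between the libraries. Hnrnpa1-203 has the same reading frame as the protein-coding Hnrnpa1-202, with 963 coding bases in both, and differs after the stop codon: its last junction lies 90 bases past the stop, against 14 bases in Hnrnpa1-202. In Hnrnpa1-204 the last junction lies 1801 bases past the stop. The expected counts were 565 and 365 for Hnrnpa1-203 and 911 and 608 for Hnrnpa1-204. In the second table Hnrnpa1-203 held 27.5% and 21.3% and Hnrnpa1-204 held 35.6% and 42.3%, so the split between them changed with the quantification while their sum stayed above 50%. The protein-coding Hnrnpa1-202 led in replicate 1 there, with 36.9%.

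Hnrnpa1-204 has a stretch of 1011 bases, chr15:103244956-103245966, that no other transcript of the gene includes. It follows directly on the annotated end of the protein-coding transcripts at 103244955. How many of the Hnrnpa1-204 counts come from this stretch was not tested. The junctions that no protein-coding transcript of Hnrnpa1 uses are shown because they are part of what sets the NMD transcripts apart. Each line is 30 bases of spliced RNA written as DNA, 5′ to 3′, with the last base before and the first base after the junction in capitals. The first joins across the intron chr15:103244029-103246345, the second across chr15:103245967-103246345, and the third, used by both transcripts, across chr15:103246422-103246544.
Hnrnpa1-203: attacatacagccaGGaaggaatctgctat
Hnrnpa1-204: ttgctatgctgctaGGaaggaatctgctat
Hnrnpa1-203 and Hnrnpa1-204: gttgctggccaaaaGGaacatccttaagac
The first pair of lines end in the same exon, a 76-base exon that both NMD transcripts include and that lies after the stop codon.

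Hnrnpa2b1 (chr6:51460932-51469894, minus strand) had 42.4% and 37.2% of its TPM on protein-coding transcripts, 50.4% and 57.1% on retained-intron transcripts and 7.22% and 5.71% on NMD transcripts. By expected counts the retained-intron share was 47.1% and 52.5%. Its leading transcript in replicate 1 was Hnrnpa2b1-208, with 22.6% of TPM there and 24.1% in replicate 2. In replicate 2 it was Hnrnpa2b1-211, another retained-intron transcript, with 24.3%, against 16.5% in replicate 1. Hnrnpa2b1-208 is a short model of 2 exons that holds 1 whole intron, 156 bases at chr6:51463255-51463410, just after the exon with the stop codon, and 3 of the 6 protein-coding transcripts splice this intron out. It had 1091 and 740 expected counts, with deposited posterior SDs of 20.6 and 16.1, and 21.3% and 24.0% of TPM in the second table. Both quantifications therefore gave it nearly the same share in each library.

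The 3′ edge of that intron is printed to show what is kept in the RNA. The line is 30 bases of the transcript, with the last bases of the intron (an AG) in capitals.
Hnrnpa2b1-208, 3′ edge of the intron: cttctgttgaaacAGgcttcactgtataaa
The intron has a GC content of 28.2%.

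Hnrnph1 (chr11:50376990-50386528, plus strand) stood apart by its processed transcripts, which held 85.7% and 90.8% of TPM and 82.8% and 88.8% of expected counts. It has 15 annotated processed transcripts and 3 protein-coding ones, and no NMD or retained-intron type. The leading one in both libraries was Hnrnph1-212, with 26.8% and 35.8%. It holds no whole intron and no base outside the protein-coding transcripts, and has 1 junction that none of them uses. The protein-coding Hnrnph1-201 held 14.3% and 9.10%, and 12.7% and 2.50% in the second table. Hnrnph1-204, at 15.9% and 16.0%, has 12 exons and keeps 2 introns that all 3 protein-coding transcripts remove, of 1494 and 939 bases. The edges of the first of these, chr11:50379965-50381458, are printed with its first and last bases in capitals, since it shows that the type named processed transcript includes unspliced sequence here.
Hnrnph1-204, 5′ edge of the intron: ttcagttcttctcagGTatgtagtcctgtt
Hnrnph1-204, 3′ edge of the intron: gtccttgggttgaAGggttggaaatcgtgc
Its paralogue Hnrnpf (chr6:117900324-117925622, plus strand) has 10 annotated transcripts, all protein coding, so its share of 100% is set by the annotation. The leading Hnrnpf transcripts were Hnrnpf-201, with 32.0% and 30.7%, and Hnrnpf-210, with 30.5% and 30.8%. They held 18.9% and 16.7%, and 35.5% and 33.6%, in the second table.

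Hnrnpd (chr5:99955935-99978938, minus strand) was the gene whose transcript shares differed most between the libraries. NMD transcripts held 35.4% of its TPM in replicate 1 and 55.9% in replicate 2, and protein-coding ones 53.8% and 39.0%. A single transcript, Hnrnpd-208, accounted for most of the NMD share, at 26.4% and 53.2%. It had 213 and 292 expected counts, with posterior SDs of 21.1 and 17.4. Its own TPM was 9.60 and 13.97, so the share differed more than the level. The protein-coding Hnrnpd-210, a model of 493 bases, was at 9.35 TPM and 3.31 TPM, on only 66 and 21 expected counts. In the second table the share of Hnrnpd-208 was 18.4% and 31.0%, again higher in replicate 2, but there Hnrnpd-210 led, with 38.6% and 32.4%. The 2 own junctions of Hnrnpd-208 enclose a 107-base exon after the stop codon that lies inside an intron of the protein-coding transcripts. These junctions are printed with the bases on either side in capitals. They join across chr5:99962205-99962514 and chr5:99961334-99962097.
Hnrnpd-208, into the exon: acttatccccaacaGCgggaacttcattgc
Hnrnpd-208, out of the exon: gaatgctgccgtttGGtggtgaagcagtat
Retained-intron RNA was a smaller part of Hnrnpd, at 10.8% and 5.06%.

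Hnrnpu (chr1:178321108-178337797, minus strand) was divided between all 4 types. The protein-coding share was 24.5% and 25.5%, all on its only protein-coding transcript, Hnrnpu-201. NMD transcripts held 31.9% and 28.5%, and retained-intron transcripts 22.6% and 22.2%. Processed transcripts held the remainder, 23.9% in replicate 2. The NMD share lay on Hnrnpu-206, the leading transcript in both libraries, with 1853 and 1132 expected counts. It uses 4 junctions that Hnrnpu-201 does not, of which 3 follow the stop codon, and the last lies 183 bases past it, while Hnrnpu-201 has no junction after its stop. By expected counts the protein-coding share was 57.4% and 59.2%, since Hnrnpu-201, at 7640 bases, is far longer than Hnrnpu-206, at 2844 bases. The retained-intron share of Hnrnpu by expected counts was 3.79% and 3.56%. In the second table Hnrnpu-206 led in replicate 1 with 25.6%, and the processed transcript Hnrnpu-203 in replicate 2 with 26.7%. The 3 junctions after the stop are printed in the order of the RNA, with the bases on either side in capitals. They join across chr1:178324017-178325242, chr1:178323714-178323965 and chr1:178323196-178323619.
Hnrnpu-206, junction A: cagtgattctaataGAcctccgcattatat
Hnrnpu-206, junction B: tcgatggagttagaGCtttttggctggtac
Hnrnpu-206, junction C: tggagggtatagaaGTtgtgctgctgtgaa

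Hnrnpm (chr17:33646233-33686860, minus strand) had 39.3% and 43.3% of TPM on protein-coding transcripts and 51.4% and 50.9% on retained-intron transcripts. Its leading transcript in both libraries, Hnrnpm-213, held 28.4% and 23.0% in the first table but 12.9% and 14.7% in the second, where the retained-intron transcript Hnrnpm-208 led with 19.6% and 23.3%. It begins inside an intron, with 115 bases that no protein-coding transcript includes (chr17:33648865-33648979), and runs into the next exon. The end of that intron is printed with its last bases in capitals.
Hnrnpm-213, 3′ edge of the intron: tctttttttcctcAGctcccatttgatttt
By expected counts the retained-intron share of Hnrnpm was 33.7% and 32.8%, below that by TPM in both libraries.

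Hnrnpl (chr7:28808541-28822266, plus strand) had the highest retained-intron share of the 10 by TPM, at 56.8% and 62.6%. By expected counts it had 42.4% and 51.7% of expected counts. NMD transcripts held a further 8.82% and 8.46%. The retained-intron share was spread over several of its 7 transcripts of that type. Hnrnpl-206 led in replicate 2 with 22.2%, against 14.7% in replicate 1, where the protein-coding Hnrnpl-202 led with 22.0%. In the second table another retained-intron transcript, Hnrnpl-208, led in both libraries with 19.1% and 17.8%, and Hnrnpl-202 held 15.8% and 9.57%. Hnrnpl-208, at 504 bases, had only 67 and 45 expected counts in the first table. Hnrnpl-202, at 1898 bases, had 608 and 383. Hnrnpk (chr13:58391142-58403343, minus strand) was nearer to an even division, with 56.2% and 52.7% on protein-coding transcripts and 43.2% and 46.3% on retained-intron ones. By expected counts its retained-intron share was 17.9% and 20.9%. The protein-coding Hnrnpk-224 led in replicate 1 with 19.4%, against 12.6% in replicate 2, where the retained-intron transcript Hnrnpk-204 led with 17.0%, against 15.1% in replicate 1. Hnrnpk-204 led the second table in both libraries, at 19.8% and 21.8%, and Hnrnpk-224 held 8.59% and 3.10%. In the first table Hnrnpk-204, at 780 bases, had 355 and 276 expected counts. Hnrnpk-224, at 2754 bases, had 2025 and 921. NMD transcripts held 0.630% and 1.02% of Hnrnpk TPM. Hnrnpc (chr14:52073377-52104028, minus strand) was mostly protein coding, at 89.5% and 81.2%, led by Hnrnpc-210 with 43.4% and 39.0%, against 32.5% and 22.1% in the second table.

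**Figure D4:**
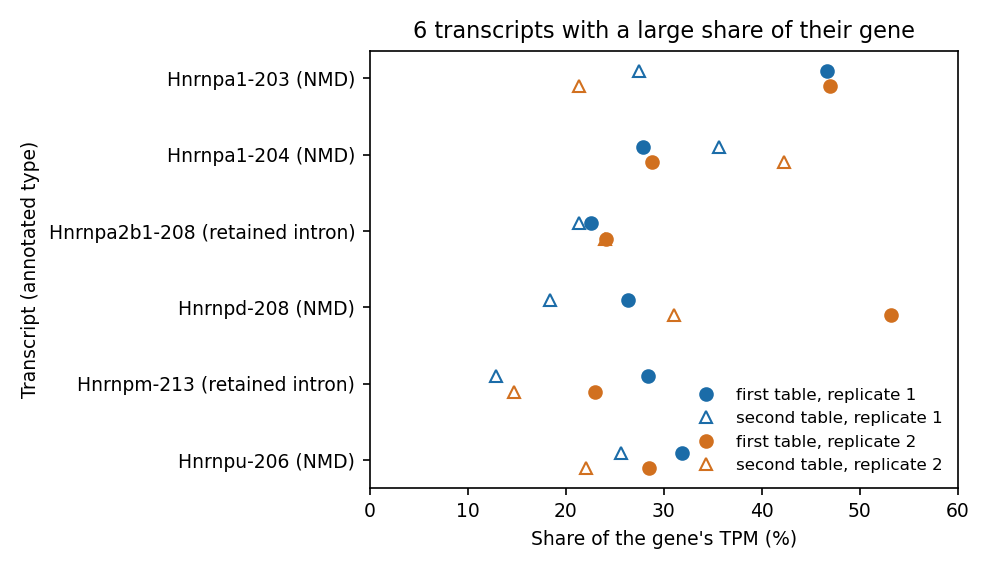
Share of the gene's TPM (%) of the 6 retained-intron or NMD transcripts that held at least 20% in both libraries, from the first (filled circles) and second (open triangles) transcript tables, with replicate 1 in blue and replicate 2 in orange. Hnrnpd-208 had the widest gap between libraries in the first table (26.4% and 53.2%), and Hnrnpa2b1-208 was nearly the same in both tables.

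Some features of these transcripts come from the annotation alone. All 15 NMD transcripts of the set have a junction more than 50 bases after the stop codon. The protein-coding Hnrnpa2b1-202 also has one, with its last junction 157 bases past the stop. It held 10.3% and 1.17% of Hnrnpa2b1 TPM. The NMD transcripts have 16 distinct junctions that no protein-coding transcript of the gene uses, and 12 of them lie after the stop. Of the 35 retained-intron transcripts, 11 hold at least 1 whole intron and 24 do not. Many of the latter begin or end inside an intron, as Hnrnpm-213 does. Retained-intron and processed transcripts of 4 genes (Hnrnpa2b1, Hnrnph1, Hnrnpk and Hnrnpl) hold 16 whole introns out of the 160 that protein-coding transcripts of the 10 genes remove. Alternative introns that overlap count separately, so some of the 16 lie inside others. These 16 all begin with GT and end with AG, and have a median length of 238 bases, from 78 to 2375, against 726 bases for the other 144. Reads from unspliced pre-mRNA, which nuclear RNA contains, can be assigned to such transcripts, and their part in the shares was not tested.

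**Figure D5:**
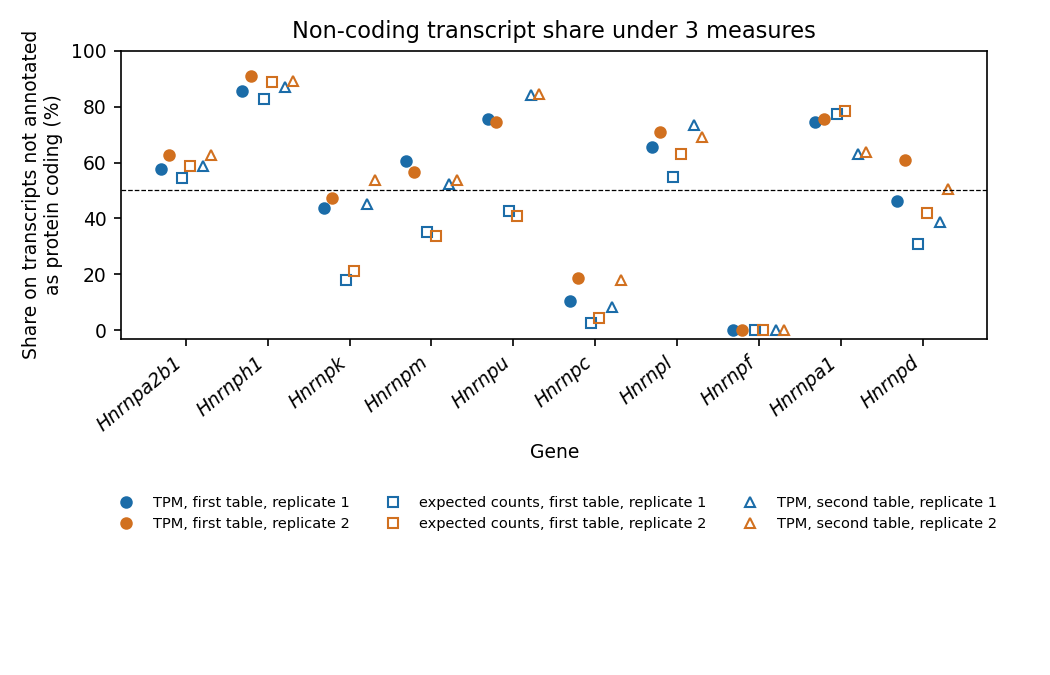
Share (%) of each gene on transcripts not annotated as protein coding, by TPM (filled circles) and expected counts (squares) of the first transcript table and by TPM of the second (triangles), with replicate 1 in blue and replicate 2 in orange and a dashed line at 50%. Hnrnpa1, Hnrnpa2b1, Hnrnph1 and Hnrnpl lie above 50% by every measure, while Hnrnpm and Hnrnpu lie above it by TPM only.

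Lists of related splicing genes were set beside the 10. The median level of the 10, in log2(TPM + 1), was 6.11 ± 0.27 (SD, n = 2), and that of 17 other hnRNP and related genes was 4.80 ± 0.41, a difference within each library of 1.31 ± 0.14. Among the highest of those 17 were Hnrnpa3, an A/B gene, at 140 TPM and 87.1 TPM, and Hnrnpll, a paralogue of Hnrnpl, at 133 TPM and 72.8 TPM. The lowest were Rbmx at 6.54 TPM and 5.83 TPM, Hnrnpr at 6.93 TPM and 4.84 TPM, and Hnrnpa0 at 7.27 TPM and 4.30 TPM. Hnrnpll was therefore above Hnrnpl in both libraries. The 10 SR genes, which encode splicing activators, were lower than the 10 hnRNP genes by 1.08 ± 0.06 at the median. The 6 genes of the CLK kinases, which phosphorylate SR proteins, and of the TRA2 activators were lower by 0.29 ± 0.08, but by CPM this last difference was -0.02.

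In the share on non-coding transcript types, counted over all 10 genes with Hnrnpf at 0, the hnRNP genes had a median of 60.5% ± 1.95 (SD, n = 2). The other hnRNP genes were at 30.9% ± 1.40, lower by 29.6 ± 3.35 percentage points within each library. That difference was 14.3 points in the second table. Of these 17 genes, 4 (Hnrnpa0, Hnrnpab, Hnrnph2 and Pcbp1) were at 0 in both libraries, as Hnrnpf was among the 10. The 6 CLK and TRA2 genes were at 70.0% ± 0.806, above the hnRNP genes, which gave a difference of -9.44 ± 1.15. Against the SR genes, at 54.9% ± 4.22, the difference of 5.56 ± 6.17 was smaller than its SD, and it changed sign to -6.98 by expected counts and -7.01 in the second table. At least 50% in both libraries was reached by 6 of the 10 genes, 5 of the 17 other hnRNP genes, 5 of the 10 SR genes and all 6 CLK and TRA2 genes. The 22.6% of all genes covers only genes with such transcripts, for which the hnRNP count is 6 of 9.

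Of the 10 genes, 6 overlap 8 other annotated genes, 6 of them on the other strand, and the strand setting of the counts is not given in the sources used here. Reads in these overlaps therefore cannot be assigned with certainty. By TPM of the gene tables the overlapping genes were low beside the hnRNP genes. The second table gave each of them more counts in both libraries. Gm17092 had 71 and 64 there against 14 and 8, and Gm44702 had 73 and 66 against 10 and 7. Gm43863 had 284 and 199 against 164 and 97. Rmi1, opposite the start of Hnrnpk, was at 8.54 TPM and 5.41 TPM, and March2, beside Hnrnpm on the same strand, was at 8.26 TPM and 5.54 TPM. Cox20, opposite the end of Hnrnpu, was at 2.16 TPM and 8.04 TPM. The processed transcript Hnrnpu-205 covers all 1586 bases of the overlap with Cox20. It held 16.1% of Hnrnpu TPM in replicate 2. Opposite Hnrnpf, 4933440N22Rik was at 8.70 TPM and 2.21 TPM and Gm43863 at 6.81 TPM and 4.26 TPM. The antisense genes Gm17092 (Hnrnpd) and Gm44702 (Hnrnpl) were at 1.19 TPM and 0.720 TPM and at 1.06 TPM and 0.800 TPM. Mir7-1, a microRNA gene inside Hnrnpk, was listed at 0 in both gene tables and had 63 and 69 counts in the second table. The Hnrnpa1 pseudogenes Hnrnpa1l2-ps and Hnrnpa1l2-ps2 had no counts in either table. Other processed copies of hnRNP genes were not examined, so reads shared with them remain uncertain.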

How the data were processed

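For each of the 2 libraries, 1 gene table and 2 transcript tables were used. They use mm10 and the GENCODE M21 annotation, and the gene table and first transcript table derive from an alignment to the transcriptome and the second from the read files, per the deposited file descriptions. Which aligner, quantifiers and strand setting were used is not given in the sources used here. Deposited expected counts are the authors' estimated reads per gene or transcript, not normalised. The deposited TPM values are the authors' length-corrected levels, which sum to the same total in each library. TPM of the second table was summed per gene here.

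The members and gene lists were chosen with earlier results of these data known. Symbols and transcript types come from the names in the tables. Transcript structure and sequences come from GENCODE M21, with 1-based coordinates. Levels are log2(TPM + 1). A type's share was compared with that in protein-coding genes of at least 1 TPM in both libraries that have a transcript of that type. Replicate ratios used expected counts rounded to whole numbers, genes with a mean count of at least 50, TMM normalisation in edgeR 4.0.16 (R 4.3.3) and 0.5 added, and the step was tested on simulated data. No p-values were computed. The nuclear and mitochondrial RNAs named are markers of the fraction. Named in the text are all 10 genes, the leading transcript of each, retained-intron or NMD transcripts of at least 20% in both libraries, the 3 highest and 3 lowest other hnRNP genes, 2 genes on either side of the highest hnRNP gene in level, and overlapping genes, except items that are not reported here. Other transcripts named (Hnrnpa1-202, Hnrnpa2b1-202, Hnrnpa2b1-213, Hnrnph1-201, Hnrnph1-204, Hnrnpl-203, Hnrnpl-210, Hnrnpu-201, Hnrnpu-205 and those leading only in the second table) were chosen after their values were seen. So were Pecam1, Cd3d and the hnRNP genes at a share of 0. Alternatives were a pseudocount of 0.1, CPM, TPM rescaled over protein-coding genes, shares of expected counts, the second table, DESeq2 1.42.0 size factors, no filter on low counts and leaving out each library. Other steps used Python 3.11.15, numpy 2.4.6 and pandas 2.3.3.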

Additional observations from a re-analysis of the deposited data

How the results depend on the processing

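The median level of the 10 genes was 6.11, and became 5.37 in the second table, 8.29 with TPM rescaled over protein-coding genes and 7.22 by CPM. These scales differ by construction. Without each replicate it was 5.91 to 6.30. At 50% or more, 3 genes were on retained-intron transcripts, 2 in the second table, where Hnrnpm no longer passes, and 0 by expected counts. The median retained-intron share was 44.8%, then 19.4% by expected counts and 47.1% in the second table (43.2% to 46.3% without each replicate). The number at 50% on NMD transcripts was 1, and 2 without replicate 1, when Hnrnpd passes (range 1 to 2). The median NMD share of 19.4% was 17.1% in the second table (18.5% to 20.3% without each replicate). The median non-coding share over 9 genes was 61.7%, then 42.2% by expected counts (60.7% to 62.8%), and the number at 50% was 6 to 7 without each replicate.

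Members minus other hnRNP genes gave a level difference of 1.31, and 0.82 by CPM (1.21 to 1.41 without each replicate), and a share difference of 29.6, then 21.7 by expected counts and 14.3 in the second table (27.2 to 31.9). For SR genes the level difference of 1.08 was 1.39 in the second table (1.03 to 1.12), and the share difference of 5.56 turned to -6.98 and -7.01 (1.20 to 9.93 without each replicate). For CLK and TRA2 genes the level difference of 0.29 was 0.40 in the second table and -0.02 by CPM (0.23 to 0.35), and the share difference of -9.44 was -29.1 by expected counts and -14.3 in the second table (-10.3 to -8.63). The cause was not tested. For single genes, the non-coding share moved by more than the SD between libraries in 7 of 9 genes by expected counts and in 4 of 9 in the second table. No member was past 2-fold between libraries under any of the 3 alternatives run for the ratio. No paired analysis was possible because the study has 1 group.

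Shares of transcripts are estimates from reads that several transcripts share, so their error is larger than counting error, and depth differs between the libraries. Levels cannot be compared between the tables.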
